A study of Mus musculus with 6 samples.

Results

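The IL-1 family genes Il1a, Il1b, Il1rn, Il1r1, Il1r2, Il1rap, Il1rl1, Il33 and Il18 were followed across 6 Affymetrix arrays of mouse skin. A probe set was counted as theirs where the platform annotation names that gene and no other. This gave 12 probe sets for 8 of the 9 genes, out of 12393 genes named on the arrays. Il1rl1, the IL-33 receptor chain, is named alone by no probe set in the annotation used here and is not analysed here. Skin came from C57BL/6 mice in which a subcutaneous pump had released its content for 7 days. The agent was IL-13 in 1 array, TSLP in 1 array and TGF-beta in 2 arrays from separate mice. PBS was the agent in the other two arrays, of which 1 is abdominal skin far from the pump (PBS distal) and 1 is skin at the pump outlet (PBS outlet). All cytokine samples are outlet skin. Every mouse carried a pump, the labels name no animal without one, and they do not say whether the PBS pieces shared a mouse. The series asks what continuous release of these cytokines does to skin.

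Interleukin-1 alpha and beta act through the receptor Il1r1, which needs the accessory chain Il1rap to signal. The antagonist Il1rn occupies the same receptor without triggering it, and Il1r2 is a decoy that binds the cytokine and passes on no signal. IL-33 is a nuclear alarmin of barrier and stromal cells, and IL-18, like IL-1 beta, is made as a precursor that caspase-1 can cut. Transcript levels of these cytokines therefore do not measure the active protein.

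The promoters of Il1b and Il33 are shown because these genes had the widest ranges over the arrays, and that of Il18 because its highest level lay where theirs were lowest. Each is the 250 bases before a start in RefSeq on GRCm38.p6, which held 14 starts for all 9 genes. Capitals mark matches on either strand to any of 6 motifs. They are the TATA box TATAAA, the CCAAT box CCAAT, the AP-1 motif TGANTCA, a STAT motif of TTC and GAA with 3 letters between, a STAT6-type motif with 4 letters between, and the NF-kB consensus.
Il1b, chr2:129371140-129371389, minus strand: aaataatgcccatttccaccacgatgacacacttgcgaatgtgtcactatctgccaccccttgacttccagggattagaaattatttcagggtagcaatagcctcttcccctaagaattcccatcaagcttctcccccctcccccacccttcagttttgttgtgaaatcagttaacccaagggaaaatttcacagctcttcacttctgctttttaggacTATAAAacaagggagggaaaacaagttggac
Il33, first start, chr19:29924863-29925112, plus strand: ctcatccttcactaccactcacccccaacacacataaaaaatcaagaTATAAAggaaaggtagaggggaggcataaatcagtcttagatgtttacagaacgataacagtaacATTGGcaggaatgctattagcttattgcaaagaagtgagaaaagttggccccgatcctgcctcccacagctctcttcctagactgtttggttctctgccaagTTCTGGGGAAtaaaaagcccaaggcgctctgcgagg
Il33, second start, chr19:29945540-29945789, plus strand: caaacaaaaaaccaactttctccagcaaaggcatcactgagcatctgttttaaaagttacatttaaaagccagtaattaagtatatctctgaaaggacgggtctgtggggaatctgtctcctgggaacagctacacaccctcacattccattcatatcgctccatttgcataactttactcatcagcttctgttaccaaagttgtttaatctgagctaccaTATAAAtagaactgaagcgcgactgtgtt
Il18, chr9:50554450-50554699, plus strand: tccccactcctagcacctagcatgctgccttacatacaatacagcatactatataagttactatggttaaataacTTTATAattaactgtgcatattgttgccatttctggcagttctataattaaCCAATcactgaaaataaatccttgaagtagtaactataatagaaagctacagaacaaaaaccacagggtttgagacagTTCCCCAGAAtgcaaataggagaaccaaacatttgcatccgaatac
Il1b held a TATAAA match beginning 31 bases before its start and no match to the other motifs. The first start of Il33 had a STAT6-type match 36 bases before it, as did Il18 at 46 bases. Both also held a CCAAT match and a TATAAA match farther upstream, and the second start of Il33 had a TATAAA match at 29 bases. The STAT6-type motif was present at 4 of the 14 starts, and the pair belonging to Il1rn shares 1 site in overlapping windows. It was present in 5.85% of 32851 mouse promoters of this length. TATAAA was present in 12.4% of them, CCAAT in 33.8%, the NF-kB consensus in 7.25%, the STAT motif in 7.02% and TGANTCA in 6.75%. No printed matches overlap one another. A match describes letters in this window and says nothing about binding.

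Signals are linear MAS5 intensities, and differences are on the scale log2(signal + 27.4), which understates the change of dim genes. Array medians ran from 160 to 171, and the median over all arrays, 165, served as the filter on dim genes. A comparison used genes with at least 1 compared array at or above it. Genes 2-fold or more apart on this scale (a log2 difference of 1) were counted, and for TGF-beta each mouse had to reach that. IL-13, TSLP, PBS distal and PBS outlet had 1 array each, so they have no spread of their own, and precision is limited by how few arrays there are. Between the TGF-beta mice themselves, 2.45% of genes were 2-fold apart. TGF-beta was also tested with limma. Each SE given is limma's moderated standard error, which draws a gene's spread toward that of other genes. It does not measure the spread between the 2 mice. An exact permutation test of its 2 arrays against 1 cannot go below p = 0.333. The keratinocyte markers were all bright, with 9 of 9 named genes above the filter on some array. The same held for 11 of 11 macrophage, 9 of 9 fibroblast, 8 of 8 skeletal muscle and 5 of 5 adipocyte genes. It held for 4 of 9 T and innate lymphoid cell genes and for 0 of 4 eosinophil genes.

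Il1b, the inflammasome-dependent cytokine, had the widest range of the family. Its signal was 1578 under IL-13, 1059 under TSLP, 415 and 483 in the TGF-beta mice, 57.7 in PBS distal skin and 588 in PBS outlet skin. Both IL-13 and TSLP lay above PBS outlet, both TGF-beta mice lay below it, and distal skin was far below all outlet arrays. Relative to PBS outlet, Il1b was higher by 1.38 under IL-13 and by 0.82 under TSLP. In PBS distal skin it differed by -2.85, a fold of 7.23 on the offset scale. The distal signal is below the filter, and the fold of the signals themselves was 10.2. The TGF-beta mice differed from PBS outlet by -0.48 and -0.27, with a mean of -0.37 (SE 0.17) and a limma adjusted p of 0.864. These 4 comparisons share the PBS outlet array, so an error in it would move all of them.

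Il33, the alarmin, followed the same order at its upper and lower ends over a smaller range. Its signal was 2582 under IL-13, 2192 under TSLP, 1519 and 1585 in the TGF-beta mice, 591 in PBS distal skin and 1478 in PBS outlet skin. The TGF-beta mice and PBS outlet lay close together, IL-13 and TSLP stood above them, and distal skin stood alone below. The differences from PBS outlet were 0.79 under IL-13, 0.56 under TSLP, 0.04 and 0.10 in the TGF-beta mice (limma adjusted p = 0.937) and -1.28 in distal skin. In the signals themselves the distal array was 2.50-fold lower.

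Il18, the cytokine that keratinocytes hold in store, showed another pattern. Its signal was 1353 under IL-13, 1444 under TSLP, 1539 and 1160 in the TGF-beta mice, 2182 in PBS distal skin and 1357 in PBS outlet skin. The outlet arrays overlapped, with IL-13 and PBS outlet nearly equal, and distal skin was above all of them by at least 0.50. Its difference from PBS outlet was 0.67 in distal skin, -0.00 under IL-13, 0.09 under TSLP, and 0.18 and -0.22 in the TGF-beta mice, which lay on either side of PBS outlet. Il1a, the form that is active without cutting, was dim on every array, at 54.1 under IL-13, 32.8 under TSLP, 30.9 and 31.9 in the TGF-beta mice, 93.1 in PBS distal skin and 30.1 in PBS outlet skin. Distal skin was again the highest, but no array reached the filter, so Il1a was left out of the counts and tests.

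**Figure D1:**
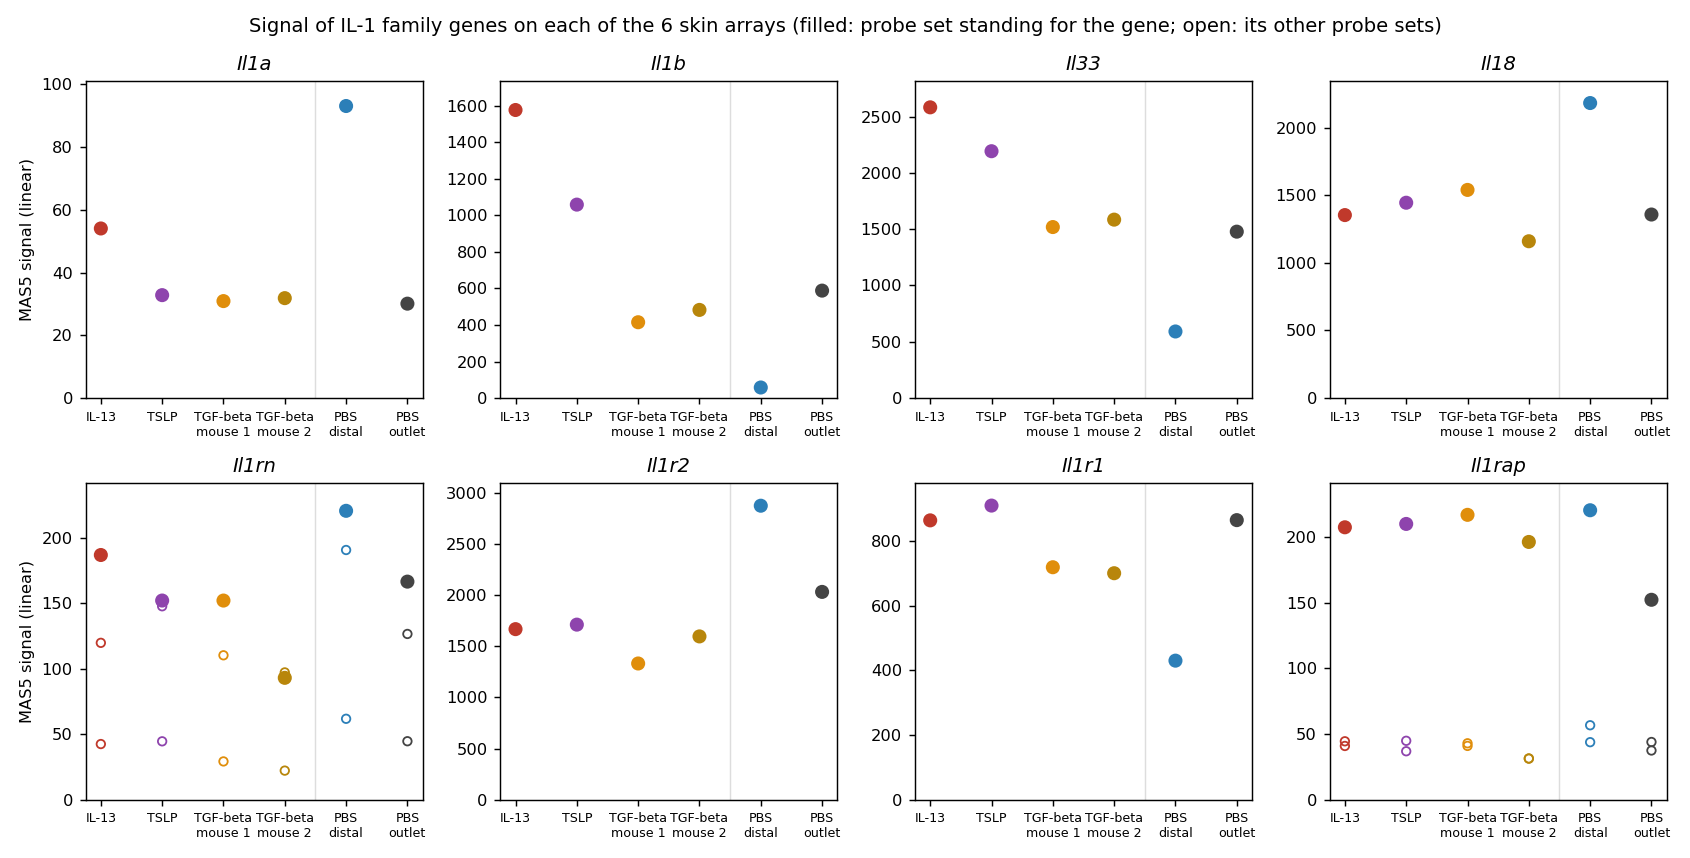
MAS5 signal (linear, y axis from 0) of the 8 IL-1 family genes on each array (x axis), with a filled point for the probe set that stands for the gene and open points for its other probe sets. Il1b ran from 57.7 in PBS distal skin to 1578 under IL-13, while Il18 and Il1r2 were highest in PBS distal skin, at 2182 and 2872.

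Of the inhibitors, the decoy receptor Il1r2 was bright. It had a signal of 1666 under IL-13, 1710 under TSLP, 1331 and 1595 in the TGF-beta mice, 2872 in PBS distal skin and 2030 in PBS outlet skin. Distal skin was highest, PBS outlet came next, and both TGF-beta mice were lowest. The differences from PBS outlet were -0.28 under IL-13, -0.24 under TSLP, 0.49 in distal skin, and -0.60 and -0.34 in the TGF-beta mice (mean -0.47, SE 0.19, limma adjusted p = 0.864). The receptor antagonist Il1rn was near the filter, with a signal on its brightest probe set of 187 under IL-13, 152 under TSLP, 152 and 93.2 in the TGF-beta mice, 221 in PBS distal skin and 167 in PBS outlet skin. All 3 probe sets of Il1rn had their highest signal in distal skin and their lowest in TGF-beta mouse 2. They disagreed on the order of IL-13, TSLP and PBS outlet. The TGF-beta mean for Il1rn differed from PBS outlet by -0.40 (SE 0.40), with -0.11 in mouse 1 and -0.69 in mouse 2 (limma adjusted p = 0.868).

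Il1r1, the signalling receptor, had a signal of 863 under IL-13, 909 under TSLP, 718 and 700 in the TGF-beta mice, 430 in PBS distal skin and 864 in PBS outlet skin. IL-13, TSLP and PBS outlet lay together, the TGF-beta mice somewhat lower and distal skin lowest. The distal difference of -0.96 fell just short of the 2-fold rule, which Il33 at -1.28 met. The TGF-beta mice differed from PBS outlet by -0.26 and -0.29 (mean -0.28, SE 0.15, limma adjusted p = 0.864). The accessory chain Il1rap varied least. Its brightest probe set had a signal of 208 under IL-13, 210 under TSLP, 217 and 196 in the TGF-beta mice, 221 in PBS distal skin and 152 in PBS outlet skin. The differences from PBS outlet were 0.39 under IL-13, 0.40 under TSLP, 0.44 and 0.32 in the TGF-beta mice (limma adjusted p = 0.864) and 0.46 in distal skin. PBS outlet was the lowest array there, but on neither of the other two probe sets, which stayed between 31.4 and 56.7.

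The arrays can be put in order for each gene, with the gap between the TGF-beta mice as the only measure of spread. Where those mice are neighbours, their own gap is left out of the count. For Il1b, 4 of the 4 other neighbouring gaps were larger than the 0.21 between the mice. For Il33, 3 of 4 were larger than 0.06, and for Il1r1, 3 of 4 were larger than 0.04. For Il1r2, 1 of 4 was, and for Il18, where the mice are not neighbours, 1 of 5, each time the gap between distal skin and the next array. For Il1rn 0 of 4 were on its brightest probe set. On the brightest probe set of Il1rap, where the mice are not neighbours, 1 of 5 was larger than 0.13. That gap, of 0.32, lay between TGF-beta mouse 2 and PBS outlet, the shared reference. With 1 pair of mice this yardstick is itself poorly known. In all 7 genes above the filter on some array PBS distal lay outside the range of the 5 outlet arrays, above it in 4 and below it in 3. The margin for Il1rap was only 0.02. Of all genes so filtered, 51.7% did so, 26.8% above and 24.9% below. Both TGF-beta mice were below the other 3 outlet arrays in 4 of the 7 genes (Il1b, Il1r1, Il1r2 and Il1rn), against 12.0% of all genes. In Il1rn this rested on mouse 1 being equal to TSLP to 3 digits, and with quantile normalization the count was 3. They were above those arrays in 0 of the 7, against 9.04%. These counts were defined after the values were seen, and they have no test.

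Counted by the 2-fold rule, 1 of 7 IL-1 family genes was higher under IL-13 than in PBS outlet skin (Il1b), against 1.12% of all genes, and 0 were lower, against 0.410%. Under TSLP 0 of 7 were, against 0.998% higher and 0.447% lower of all genes. Under TGF-beta 0 of 7 passed in either direction, against 0.181% of all genes higher and 0.155% lower. In PBS distal skin 2 of 7 were lower (Il1b and Il33), against 3.51%, and 0 were higher, against 0.788%. With every compared array required to be above the filter, Il33 alone was left. limma with Benjamini-Hochberg adjustment called 0 of the 7 genes under TGF-beta, and 0 of them had an unadjusted p under 0.05. Over all 7741 genes it also called 0 (0%), with 355 at an unadjusted p under 0.05. Applied to the single arrays with the TGF-beta mice lending their spread, limma called 0 of the 7 genes under IL-13, under TSLP and in distal skin, against 0%, 0% and 0.0263% of all genes. These calls depend on the scaling: after quantile normalization it called 3 genes higher under IL-13, 6 higher and 1 lower under TSLP, and 11 higher and 109 lower in distal skin, Il1b and Il33 among the last. For these single arrays the differences themselves are given above, and that of Il1b was the largest in size each time. The median difference of the 7 genes was -0.28 under TGF-beta, 0.14 under IL-13, 0.09 under TSLP and 0.35 in distal skin, where that of all genes was -0.05, -0.07, -0.01 and -0.01 in the same order. These medians mix genes with differences in opposite directions.

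**Figure D2:**
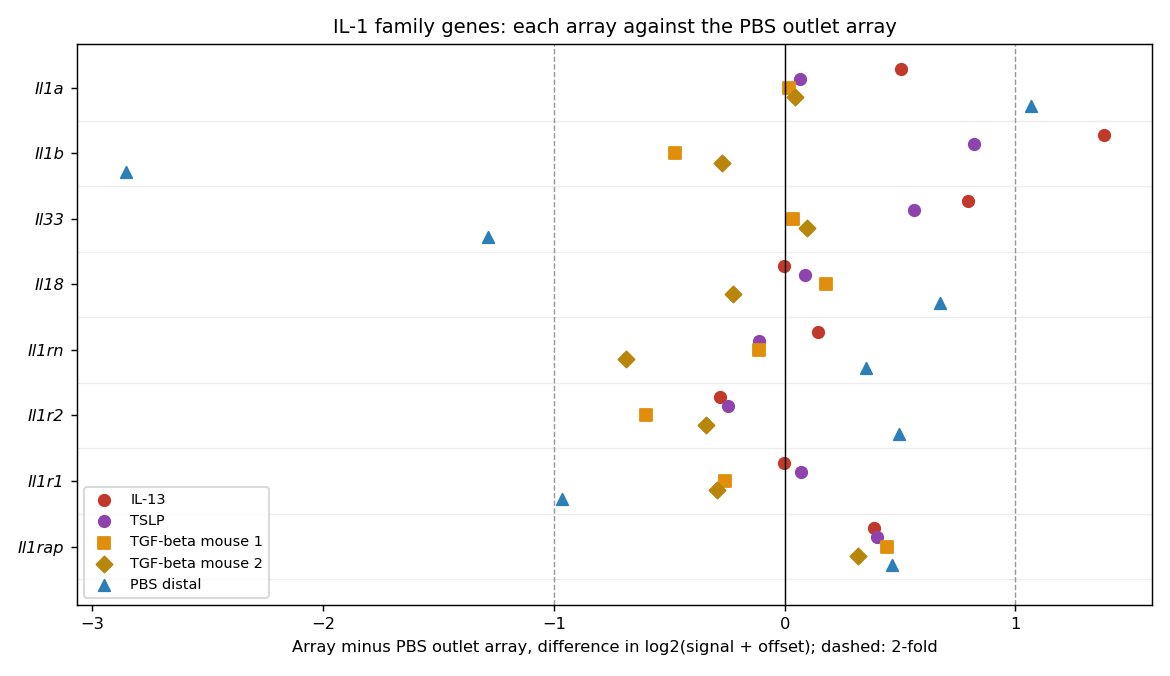
Difference of each array from the PBS outlet array in log2(signal + 27.4) (x axis) for the 8 IL-1 family genes (y axis), with dashed lines at 2-fold. Il1b lies at 1.38 under IL-13 and -2.85 in PBS distal skin, and Il33 and Il1r1 have their lowest point in distal skin, at -1.28 and -0.96.

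Setting TGF-beta against the other cytokines leaves the PBS arrays out. Il1b was lower under TGF-beta than under IL-13, with a difference of -1.86 in mouse 1 and -1.65 in mouse 2 (mean -1.76, SE 0.17). This was the largest difference of the family in that comparison, a fold of 3.38, and the limma adjusted p was 0.737. It was also lower than under TSLP, with differences of -1.30 and -1.09 (mean -1.19, SE 0.17, limma adjusted p = 0.676). Il33 followed with means of -0.73 against IL-13 and -0.49 against TSLP, while Il1r1 was at -0.27 and -0.35. By the 2-fold rule in both mice, 1 of 7 genes was lower than under IL-13 and 1 of 6 lower than under TSLP, Il1b each time, against 0.430% and 0.515% of all genes. None was higher, against 0.0261% and 0.167%. The call against TSLP was lost when the offset was raised to the filter value. limma called 0 IL-1 family genes and 0 genes in all in either comparison, with 179 of 7674 and 568 of 7763 genes at an unadjusted p under 0.05. Il1b and Il33 were among these in both. Between the single IL-13 and TSLP arrays, Il1b differed by 0.56 and Il33 by 0.23, with IL-13 higher in both. Il1rn had no settled direction, at 0.26 on its brightest probe set and -0.25 and -0.04 on the others.

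Il1b and Il33 had log2 values that spanned at least 2 over the 6 arrays, and the genes most like them were sought by Pearson's r over those arrays among 1213 genes. Nearest to Il1b were Hdc (r = 0.999), the enzyme that makes histamine, Cxcr3 (r = 0.995), a chemokine receptor of T and NK cells, and Dio2 (r = 0.993), a deiodinase of thyroid hormone. Hdc had a signal of 614 under IL-13, 447 under TSLP, 246 and 267 in the TGF-beta mice, 67.2 in PBS distal skin and 324 in PBS outlet skin. Nearest to Il33 were Fxyd2 (r = 0.997), a regulator of the sodium pump, Dio2 (r = 0.996) and Cxcr3 (r = 0.994). With 6 points, 95 genes reached r of at least 0.9 with Il1b and 128 with Il33, so a high r is common here. Il1b and Il33 had an r of 0.991 with each other, and Il1b and Il1r1 one of 0.951. The distal array was lowest for each of these genes.

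Markers of leukocytes moved with Il1b in part. Of the 12 neutrophil markers 9 are named and 6 passed the filter on some array, while Cxcr2, Ltf and Mmp8 were below it on all arrays. Their summed signal was 11616 under IL-13, 6634 under TSLP, 7482 and 7217 in the TGF-beta mice, 1049 in PBS distal skin and 4903 in PBS outlet skin. S100a8 and S100a9 hold most of that sum, with 4212 and 2170 in TGF-beta mouse 1, and keratinocytes can express both. In the TGF-beta mice these genes were above PBS outlet, by 0.81 and 1.04 for S100a8 and by 0.70 and 0.17 for S100a9. The granule genes Ngp (-0.67 and -1.82), Camp (-0.25 and -0.85), Ltf (-0.31 and -1.10) and Mmp8 (-0.05 and -0.20) lay below PBS outlet there. Il1b was below it there too. The other listed genes lay above it, with Mmp9 at 0.19 and 0.07, Csf3r at 0.27 and 0.15 and Cxcr2 at 0.49 and 0.003. Under IL-13, where Il1b was highest, Ngp (-0.50) and Ltf (-0.15) were below PBS outlet, and Camp (0.18) and Mmp8 (0.29) above it. The 11 macrophage and monocyte markers summed to 50677 under IL-13, 45366 under TSLP, between 43970 and 47360 in the TGF-beta mice, 32376 in PBS distal skin and 43681 in PBS outlet skin. Their members differed. Cd14 was at 1.32 from PBS outlet under IL-13, 0.97 under TSLP, 0.10 and -0.24 in the TGF-beta mice and -1.60 in distal skin. Under TSLP, 8 of the 11 lay above PBS outlet, and Mrc1 (-0.14), C1qb (-0.06) and Csf1r (-0.05) below it. The mast cell list, 9 of 9 named and 6 above the filter, summed to 4999, 3619, 3294, 3987, 1994 and 4590 in the order IL-13, TSLP, TGF-beta mouse 1, TGF-beta mouse 2, PBS distal and PBS outlet. Hdc is 1 of its members, at 0.87 from PBS outlet under IL-13 and 0.43 under TSLP. Under TSLP 3 of the 6 were higher, with Cpa3 (-0.42), Cma1 (-0.53) and Mcpt4 (-0.55) lower. Under IL-13 4 of the 6 were higher, with Mcpt4 (-0.33) and Kit (-0.19) lower. The mast cell genes Tpsb2, Tpsab1 and Ms4a2 stayed below the filter. The part of these cells in the Il1b result was not tested. In whole skin, fewer cells of a type and less RNA per cell cannot be told apart.

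Il33, Il18 and Il1r2 can be set beside the resident cells. The fibroblast markers summed to 77239 under IL-13, 60427 under TSLP, 85569 and 71390 in the TGF-beta mice, 62918 in PBS distal skin and 71684 in PBS outlet skin. The endothelial markers, 7 of 8 above the filter, summed to 3628, 4933, 5325, 3648, 5223 and 5314 in the order given for mast cells. The endothelial sum hides its members, since Lyve1 was higher in distal skin, with 3624 there and 2407 in PBS outlet skin. The other 6 of the 7 genes above the filter were lower in distal skin, as Il33 was. The list median was -0.54, against -0.01 for all genes. Of the 7, 3 were 2-fold lower, against 3.51% of all genes, namely Cdh5 (-1.51), Emcn (-1.05) and Pecam1 (-1.03). Under IL-13, where Il33 was highest, all 7 had a negative difference (median -0.34, against -0.07 for all genes). The part of these cells in the Il33 result was not tested. The keratinocyte markers summed to 63741 under IL-13, 55294 under TSLP, 70492 and 61470 in the TGF-beta mice, 83200 in PBS distal skin and 66349 in PBS outlet skin. The T and innate lymphoid cell list, with Cd3e, Cd4, Cd8a, Foxp3 and Icos below the filter, summed to 2445 under IL-13, 3274 under TSLP, 2624 and 2481 in the TGF-beta mice, 4209 in PBS distal skin and 2919 in PBS outlet skin. Distal skin was highest for both sums, as it was for Il18, Il1r2, Il1rn, Il1a and, by only 0.02, Il1rap. The log2 ratio to PBS outlet was 0.33 for keratinocytes and 0.53 for the lymphoid list. The adipocyte genes, 5 above the filter, were also all higher in distal than in PBS outlet skin, with a ratio of 0.32. Their sum was 28247 in distal skin, but highest in TGF-beta mouse 1, at 28729. Gata3 and Rora, at 0.62 and 0.67 from PBS outlet in distal skin, hold most of the lymphoid sum. Cd3g was also higher there (0.34). The rest were lower there, with Cd3e at -0.30, Cd4 at -0.44, Cd8a at -0.10, Foxp3 at -0.08, Icos at -0.45 and Il7r at -0.09. The higher lymphoid sum in distal skin therefore does not hold for most of its members. The part of keratinocytes, adipocytes or lymphoid cells in those results was not tested.

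**Figure D3:**
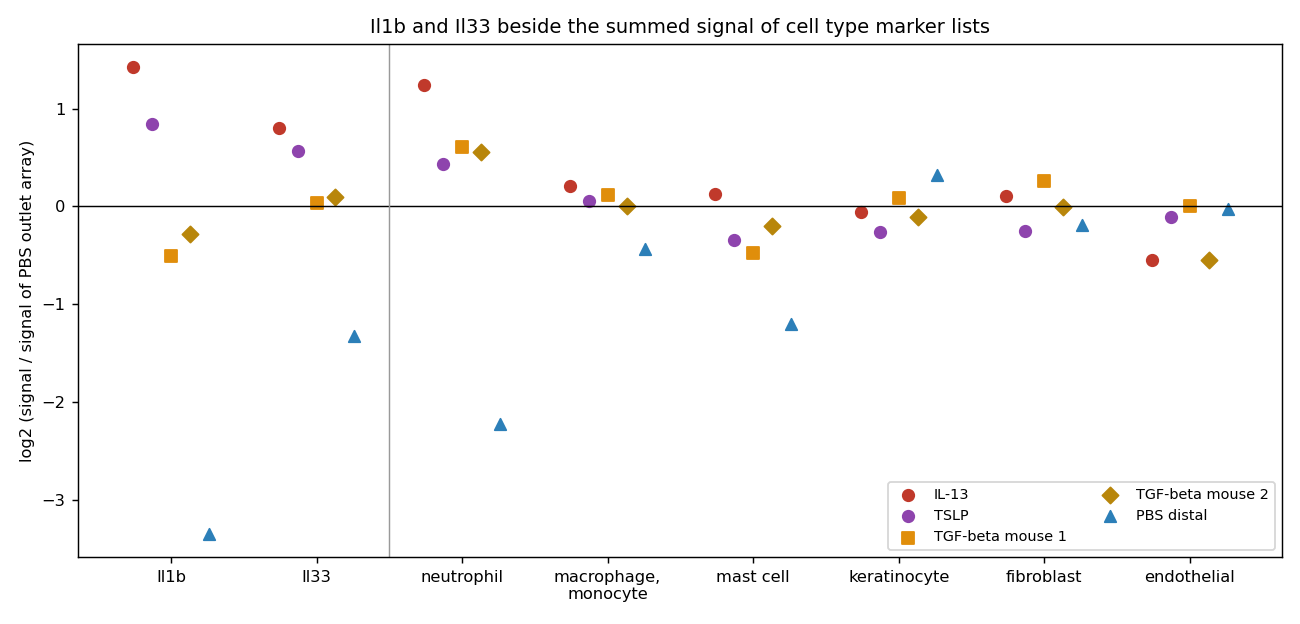
log2 ratio of the signal on each array to that on the PBS outlet array (y axis) for Il1b, Il33 and the summed signal of 6 marker lists (x axis). PBS distal skin is lowest for Il1b, Il33 and the neutrophil, macrophage and mast cell lists, and highest for the keratinocyte list.

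The wider IL-1 system was covered by gene lists. Of 24 genes that IL-1 is known to induce in skin cells, 9 of the 18 above the filter were 2-fold higher under IL-13, against 1.12% of all genes, and 0 lower, with a list median of 1.16 against -0.07 for all genes. The highest were Cxcl5 (4.33), Cxcl2 (3.05) and Cxcl1 (2.72), all neutrophil chemokines, with the collagenase Mmp13 (4.06) and the cytokine Il6 (1.92). In PBS outlet skin these were below the filter, at 67.4, 102, 162, 15.8 and 106 in that order. Ptgs2 and Tnfaip6, also among the 9, were below it there too, at 49.0 and 156. All of these entered the count through the IL-13 array alone. Under TSLP 6 of 17 were 2-fold higher, against 0.998% of all genes, and 0 lower (median 0.67, against -0.01 for all genes), with Cxcl5 at 4.15, Cxcl2 at 2.80, Cxcl1 at 2.78, Il6 at 2.29 and the protease Mmp3 at 1.85. Under TGF-beta 4 of 15 were 2-fold higher in both mice, against 0.181% of all genes (median 0.24, against -0.05), namely Cxcl5, Mmp3, Cxcl2 and the acute phase gene Saa3. Cxcl5 was at 3.49 in mouse 1 and 1.93 in mouse 2, and Mmp3 at 1.99 and 1.88. The monocyte chemokine Ccl7 alone was 2-fold lower, against 0.155% of all genes, at -1.09 in mouse 1 and -1.14 in mouse 2, and limma called 0 of the 15. In distal skin 5 of 11 were 2-fold lower, against 3.51% of all genes (median -0.66, against -0.01), namely Saa3 (-4.39), the siderophore binder Lcn2 (-2.25), the adhesion molecule Vcam1 (-1.75), Ccl2 (-1.42) and Ccl7 (-1.11), and all 11 had a negative difference. Under TSLP, Cxcl5, Cxcl2, Cxcl1, Il6 and Tnfaip6 likewise entered through the TSLP array alone. Under TGF-beta, Cxcl5 and Cxcl2 entered through the TGF-beta arrays alone. In distal skin Lcn2 and Vcam1 were below the filter, at 158 and 108, and entered through PBS outlet. The counts and medians of this list rest in part on such genes. Many other signals induce the listed genes too, and earlier results of these data were known when the list was written.

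Against the other cytokines, both TGF-beta mice had 7 of 18 such genes 2-fold lower than IL-13, against 0.430% of all genes, and 5 of 17 lower than TSLP, against 0.515%. None was 2-fold higher in either, against 0.0261% and 0.167%. Cxcl1 had a mean difference of -2.47 against IL-13 and -2.53 against TSLP, and Ccl2 one of -2.09 and -1.44. Ccl7 was at -2.01 and -1.24. Mmp13 was at -2.33 against IL-13 and Cxcl2 at -1.84, and Il6 was at -1.97 against TSLP and Cxcl2 at -1.59. Mmp13 and Il6 were below the filter in both TGF-beta mice, so they entered through the IL-13 or TSLP array. Ptgs2, also among the 7 genes lower than IL-13, was dim in those mice too, at 73.4 and 70.4. It passed the filter through the IL-13 array alone, where it reached 226. Both counts of lower genes rest in part on such genes. Among the processing and signalling genes 0 were 2-fold apart in both mice. The largest difference from TSLP was that of the inflammatory caspase Casp4, at -0.64 in mouse 1 and -1.16 in mouse 2. limma called 0 of these genes.

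Of 15 named signalling genes, from the adaptor Myd88 to the NF-kB inhibitor Nfkbia, 14 or 15 passed the filter in each comparison. In each, 0 were 2-fold apart, which is near the share of all genes. From PBS outlet, 1.12% of all genes were 2-fold higher and 0.410% lower under IL-13, and 0.998% and 0.447% under TSLP. The shares were 0.181% and 0.155% under TGF-beta, and 0.788% and 3.51% in distal skin. The largest differences from PBS outlet were -0.45 for the inhibitor Nfkbib under IL-13, -0.59 for the kinase Irak1 under TSLP, a mean of -0.39 for Nfkbib under TGF-beta and -0.72 for the NF-kB subunit Nfkb2 in distal skin. Of 10 named processing genes, 5 or 6 passed the filter. Pycard, the inflammasome adaptor, differed from PBS outlet by 0.22 under IL-13, and the protease Capn1 by -0.87 there. Casp4 was at 0.57 and Casp1, which cuts the IL-1 beta and IL-18 precursors, at 0.28 under TSLP. Under TGF-beta, Capn1 was at a mean of -0.35 and Casp4 at -0.33. Prtn3, a neutrophil protease, was 2-fold higher in distal skin (1.04), with 362 there and 162 in PBS outlet skin. It was above the filter in distal skin alone. Elane (-0.59) and Ctsg (-0.66), proteases of the same list, were lower in distal skin and below the filter on all arrays. Of the other IL-1 family ligands and receptors 7 of 12 are named and at most 3 passed the filter. Il18bp, the soluble inhibitor of IL-18, was just past 2-fold lower in distal skin, with a signal of 72.3 against 173 in PBS outlet skin. It was at 0.39 under TSLP and -0.08 under IL-13. Sigirr, an inhibitory receptor, was at 0.26 under TSLP. Il18r1, the IL-18 receptor, was at -0.14 under IL-13, and at -0.37 and -0.41 in the TGF-beta mice.

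**Figure D4:**
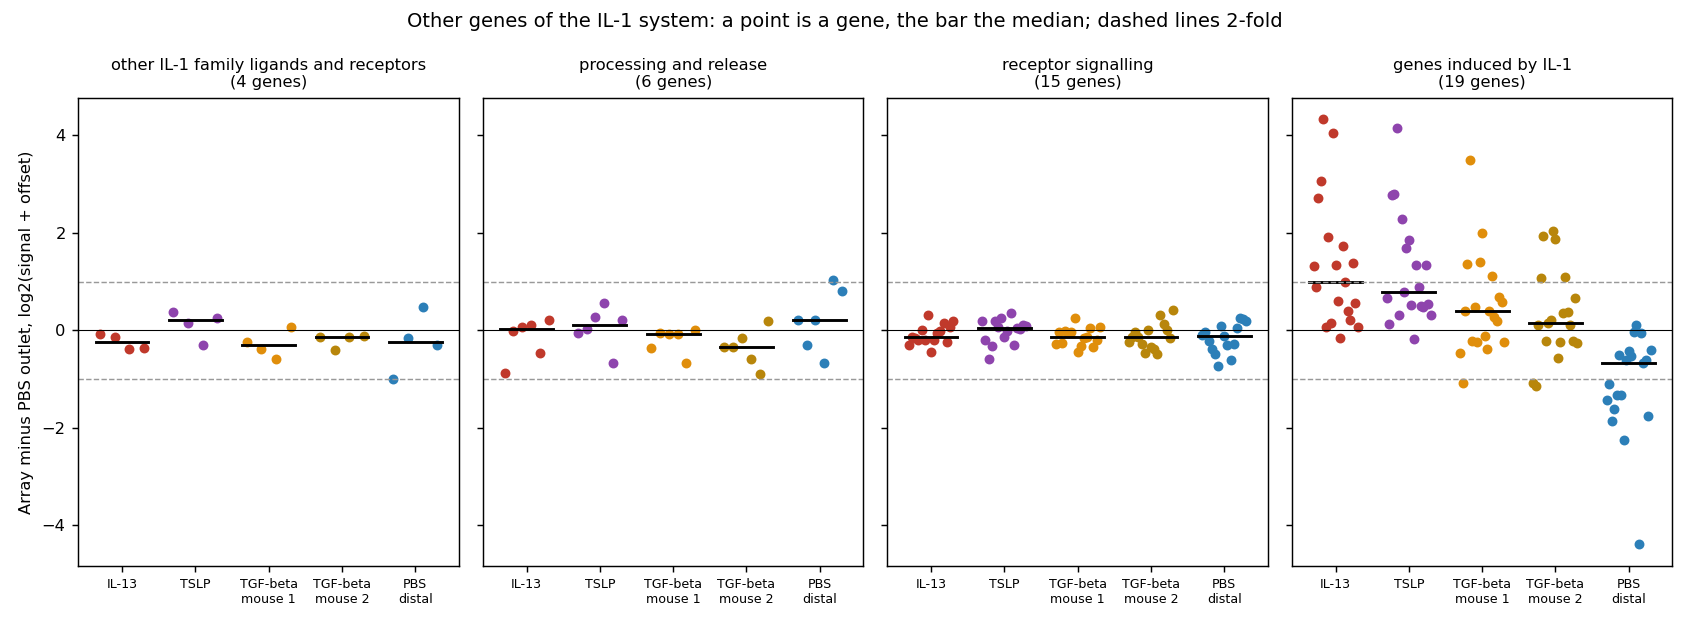
Difference of each array from PBS outlet in log2(signal + 27.4) (y axis) for the genes of 4 lists that were above the filter on at least 1 array (4, 6, 15 and 19 genes), a point per gene and a bar at the median. The genes induced by IL-1 have array medians of 0.99 under IL-13, 0.78 under TSLP, 0.40 and 0.16 in the TGF-beta mice and -0.66 in PBS distal skin, while the signalling genes lie within 2-fold throughout.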

How the data were processed

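Total RNA of 6 skin samples in 5 groups was hybridised to Affymetrix arrays, 1 per sample. The deposited values are linear signal intensities per probe set from the authors' MAS5 run, as the submitters' processing notes have it, with the version and any genome build not given in the sources used here. Trimmed means (2% off each end) were 500.2 on every array, so the arrays were already on 1 scale, and scaling them to equality moved values very little. Of 22690 probe sets, 64 are controls, 20380 name 1 gene, 691 several, and 1555 are unnamed here. Symbols were matched by gene number for 20351 of them to RefSeq (GRCm38.p6), which was used for names and promoter sequences. Each gene was read from its probe set of highest mean log2 value, which gave 12393 genes.

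Values were log2(signal + 27.4), the offset being the 25th percentile of all signals. limma 3.58.1 under R 4.3.3 (lmFit, eBayes with an intensity trend) was fitted over all genes past the filter, with all 6 arrays in 5 groups and Benjamini-Hochberg adjustment at 0.05. Only the 2 TGF-beta mice inform the spread (1 residual and 3.13 prior degrees of freedom against PBS outlet), and the single arrays were assumed to vary like them. The step was tested on simulated data. Alternatives were other offsets, quantile normalization, other filters, other uses of probe sets, each TGF-beta mouse left out, and PBS distal as control. The IL-1 family genes and the lists were chosen with earlier results of these data known. From each other list, the text names the members past the 2-fold rule, at most 5 per comparison and direction, or else the 2 with the largest difference. Likeness was taken among genes spanning at least 1 on the log2 scale, with 3 named. No detection calls were used.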

Additional observations from a re-analysis of the deposited data

How the results depend on the processing

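No paired analysis was possible because the labels number the TGF-beta mice alone and every other group has 1 array. Counts of IL-1 family genes at least 2-fold from PBS outlet changed mainly with the control: against PBS distal they were 2 under IL-13, 3 under TSLP and 2 under TGF-beta, which mixes the agent with the pump and the body site. With every compared array above the filter the distal count was 1, since Il1b is dim there, and with the higher offset TGF-beta against TSLP had 0. Of all genes, the number at least 2-fold apart under IL-13 was 116, and 60 with the higher offset, 176 without a filter, 65 with every array above it, 65 without genes that set the TGF-beta mice apart and 569 against PBS distal. Under TSLP it was 110, and 60 with the higher offset and 492 against PBS distal. Under TGF-beta it was 26, and 45 and 7 with the lower and higher offsets, 14 with every array above the filter, 295 against PBS distal and 72 to 255 with 1 mouse left out. In distal skin it was 327, and 168 with the higher offset and 175 with every array above the filter. TGF-beta against IL-13 had 35, and 16, 20 and 96 to 182 under the higher offset, the stricter filter and 1 mouse left out, and TGF-beta against TSLP had 53, and 24, 31 and 96 to 320. limma called 4 genes with TGF-beta against PBS distal, and 4 each against IL-13 and TSLP after quantile normalization, in place of 0. None of the genes called in these 2 TGF-beta comparisons after quantile normalization was an IL-1 family gene, Il1b having a limma adjusted p of 0.0517 against IL-13. Against PBS distal, the TGF-beta means turned to -1.04 for Il1a, 2.48 for Il1b, 0.69 for Il1r1 and -0.084 for Il1rap. With 1 TGF-beta mouse left out, Il18 ran from -0.22 to 0.18 against PBS outlet, -0.22 to 0.18 against IL-13 and -0.31 to 0.090 against TSLP. Il1rap ran from -0.070 to 0.057 against IL-13 and -0.086 to 0.041 against TSLP, and was at 0.032 against TSLP after quantile normalization. Applied to single arrays, limma called 0 genes under IL-13 and TSLP (292 and 304 at an unadjusted p under 0.05) and 2 in distal skin. After quantile normalization it called 3 higher under IL-13, 6 higher and 1 lower under TSLP, and 11 higher and 109 lower in distal skin. Without the genes that set the TGF-beta mice apart it called 1 higher and 27 lower in distal skin. Il1b had an adjusted p of 0.90 under IL-13 and 1.00 under TSLP, with 0.233 and 0.444 after quantile normalization, and 0.0916 in distal skin. In distal skin its value was 0.00138 after quantile normalization, where Il33 was called too, and 0.0183 without the genes that set the TGF-beta mice apart. It ran from 0.0612 to 0.394 under the settings that kept it uncalled. The causes of these changes were not tested, apart from the filters and left-out arrays, which change the genes or arrays used.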
